A study of Mus musculus with 4 samples.

Results

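Of the 1703 long intergenic noncoding RNA (lincRNA) genes listed for ID8 mouse ovarian cancer cells, 180 had a mean level of at least 1 CPM (log2 CPM of at least 0), and these 180 are described here. CPM expresses the reads on a gene relative to all reads of its library, with no correction for gene length. The whole table held 23875 genes, of which 20674 were protein-coding, 953 were miRNAs and 545 were snoRNAs. The 180 genes were chosen by that mean level, so the levels below are a description of them. The study sequenced ID8-PW2 cells, a line taken from a peritoneal wall tumor after a second passage through mice, and ID8-P0 cells, the parental line of transformed mouse ovarian surface epithelium, with 2 libraries each. ID8-P0 cells carry luciferase and GFP, and ID8-PW2 cells were derived from them. Both lines are labelled C57BL/6 and wild type, and all cells were held in suspension for 24 h on a surface that prevents attachment. RNA over the size limit of the small RNA fraction was fragmented, depleted of abundant ribosomal RNA with a nuclease that cuts double-stranded DNA, and read with its strand kept. The 4 columns of counts per library carry names that no sample label uses and were given to no sample. The level of each gene is therefore the authors' mean log2 CPM over the 4 libraries, with no value per library, and ID8-PW2 cells were not compared with ID8-P0 cells here.

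lincRNAs are transcripts of RNA polymerase II that lie between or beside protein-coding genes and have no long reading frame. Some stay in the nucleus and build or coat nuclear structures. Others matter mainly for what is cut out of them: snoRNA host transcripts are spliced and decayed while their introns release small nucleolar RNAs, which guide chemical modification of ribosomal RNA, and miRNA host transcripts are cut by Drosha in the nucleus to release hairpins. A read that falls on such a small RNA can lie inside the host gene as well.

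The levels spanned more than 5 orders of magnitude, but only with Gm26924, most of which overlaps a sequence related to 18S ribosomal RNA. Without that gene they ran from 1.01 to 15294 CPM. Of the 180 genes, 4 had at least 1000 CPM, 6 had between 100 and 1000 CPM, 22 had between 10 and 100 CPM, and 148 had less than 10 CPM. The median was 2.52 CPM, against 18.3 CPM for the 11681 protein-coding genes at or above 1 CPM. The same threshold was passed by 10.6% of the lincRNA genes and by 56.5% of the protein-coding genes. The leading gene, Gm26924, stood at log2 18.20. It was followed by Malat1 at 13.90, Snhg1 at 12.59, Neat1 at 11.61, Snhg12 at 9.59, Xist at 8.55, Gm12840 at 7.69, Snhg7 at 7.32, 1700020I14Rik at 6.77 and Snhg5 at 6.74 log2 CPM. Of these 10 genes, 4 are snoRNA hosts and 4 belong to the list of nuclear RNAs. Without Gm26924, the first 3 of the remaining 179 genes held 90.0% of the CPM of the set, and the first 10 held 96.6%. At the threshold, the lowest genes inside were Gm17354 (1.01 CPM), Gm26519 (1.01 CPM) and Gm26849 (1.01 CPM), and the nearest outside were Gm26534 (0.999 CPM), A430046D13Rik (0.992 CPM) and Gm26641 (0.983 CPM). A further 631 lincRNA genes stood at the lowest value of the table, 0.163 CPM, where no difference between genes can be read.

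**Figure D1:**
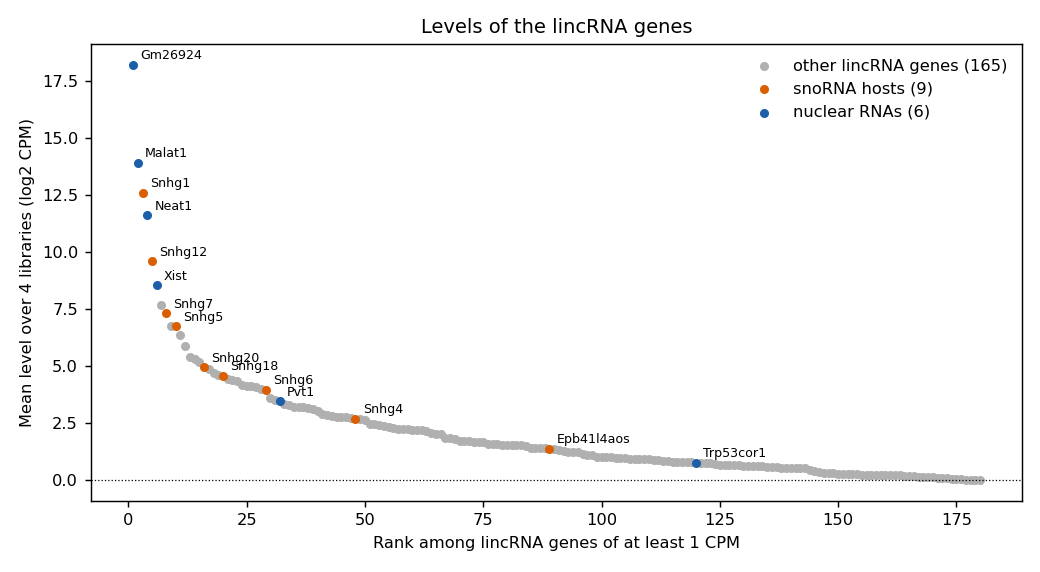
The authors' mean level over 4 libraries (log2 CPM) is plotted against rank for the 180 lincRNA genes, with snoRNA hosts in orange, nuclear RNAs in blue and the dotted line at the threshold. Gm26924 stands apart at 18.20, and 148 of the 180 genes lie below 10 CPM.

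Of the names on the snoRNA host list, 9 were present as lincRNA genes, and all 9 were at or above 1 CPM: Snhg1, Snhg12, Snhg7, Snhg5, 2810008D09Rik (Snhg20 in GENCODE release M21), 0610007N19Rik (Snhg18), Snhg6, Snhg4 and 2410004N09Rik (Epb41l4aos). Another host, 1500012F01Rik (Zfas1), was typed protein-coding in the table and stood at 1799 CPM, and Snhg11, also typed protein-coding, stood at 1.05 CPM. Gas5 and Dancr were not analysed here. The leading host was Snhg1 at 6156 CPM. Its gene lies on chr19:8723496-8726442 (GRCm38, plus strand) and holds 8 annotated snoRNAs, each of them also a row of the table. These snoRNAs are printed below because their summed level is close to that of the host. Each is given 5′ to 3′ from GENCODE M21, in genome order. The capitals mark 2 motifs searched on the strand of the snoRNA: TGATGA within the first 20 bases, the core of the C box, and CTGA within the last 12 bases, the D box. The 2 boxes are bound by the proteins of the methylation-guiding snoRNP.
Gm25855: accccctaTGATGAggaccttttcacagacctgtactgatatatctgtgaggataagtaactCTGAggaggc
Gm25894: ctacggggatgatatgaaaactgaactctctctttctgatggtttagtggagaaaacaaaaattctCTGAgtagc
Gm24452: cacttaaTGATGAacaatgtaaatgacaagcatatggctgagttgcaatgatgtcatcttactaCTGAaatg
Gm24453: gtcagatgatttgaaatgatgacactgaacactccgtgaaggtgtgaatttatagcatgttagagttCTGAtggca
Gm22744: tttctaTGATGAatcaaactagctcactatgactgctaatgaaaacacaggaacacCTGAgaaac
Gm22680: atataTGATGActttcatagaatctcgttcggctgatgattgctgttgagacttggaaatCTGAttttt
Gm23246: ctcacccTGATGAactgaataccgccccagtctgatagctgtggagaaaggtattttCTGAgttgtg
Snord22: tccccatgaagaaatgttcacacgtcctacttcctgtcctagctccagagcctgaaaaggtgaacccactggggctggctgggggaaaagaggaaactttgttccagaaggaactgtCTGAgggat

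The D box was found in 8 of the 8 and the C box core in 5. Among the 516 snoRNA rows of the table with a GENCODE sequence, which also include the H/ACA class, 33.1% held CTGA and 22.3% held TGATGA in the same windows, and 18.99% held both. A snoRNA without a match lacks these letters in the window and nothing more can be read from it. The first, Gm25855 (chr19:8723993-8724064), stood at 147 CPM. Gm25894 stood at 650 CPM, Gm24452 at 997 CPM and Gm24453 at 175 CPM. Further along, Gm22744 stood at 535 CPM, Gm22680 at 1319 CPM and Gm23246 at 772 CPM. The last and longest, Snord22 (chr19:8725866-8725991), stood at 1520 CPM. The highest and the lowest thus differed 10.4-fold although all 8 lie in a single host gene. The lowest was the first along the gene and the highest was the last, and a relation with position was not tested. These values are not per length, and Snord22 has 126 bases against 72 for Gm25855, so part of the difference may come from length. The libraries were made from the fraction of long RNA, so these values cannot be read as levels of the mature snoRNAs. Together the 8 snoRNA rows held 6114 CPM, against 6156 CPM for the Snhg1 row, a ratio of host to snoRNAs of 1.01. In GENCODE M21 all 8 lie within an exon of a Snhg1 transcript, and the models include transcripts with a retained intron.

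The same sum was formed for every lincRNA gene above 1 CPM that holds a snoRNA, scaRNA or miRNA row on its own strand. There were 18 such genes with 38 small RNA rows, which is 10.0% of the 180 genes, against 16 of the 1523 lincRNA genes below 1 CPM (1.05%). The comparison that follows is of reads on a host with reads on the small RNAs within it, on the CPM scale and not per length. As in Snhg1, the small RNA rows come from the fraction of long RNA and cannot be read as levels of the mature forms. In 11 genes every small RNA lay within an exon of the host in GENCODE M21, in 5 genes none did, and for Snhg7 and Gm26591 no host model was found there. The exons of all transcripts of a gene were joined for this. The joined exons exceeded the span of the row for Snhg1 (2969 against 2947 bases), Snhg12 (2402 against 2347) and 2810008D09Rik (2795 against 2166). They exceeded it most for 6720427I07Rik (5598 against 2300). The split thus follows the annotated models and does not show that a small RNA is exonic in the spliced host.

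Among the exon-contained hosts, 8 held small RNAs of at least 10 CPM in sum. In 7 of these 8 the host row was between 0.901 and 1.53 times the sum. Snhg12, with 3 H/ACA snoRNAs and the C/D snoRNA Snord99, stood at 771 CPM, against 856 CPM for its 4 snoRNAs. Of that sum Snord99 made up 48.1%, at 412 CPM, while Snora44 had 180 CPM, Snora61 had 174 CPM and Snora16a had 89.4 CPM. Snhg5 stood at 107 CPM, against 92.5 CPM for its 2 snoRNAs. 2810008D09Rik (Snhg20) stood at 30.8 CPM, against 25.2 CPM for the scaRNA Gm26083, a class that guides modification of spliceosomal RNA in Cajal bodies. 2900076A07Rik stood at 16.1 CPM, against 15.2 CPM for Mir1839, typed scaRNA in GENCODE M21. The exception was Snhg4, at 6.51 CPM, against 893 CPM for Snora74a (870 CPM) and the row named Mir1949 (23.7 CPM), a ratio of 0.00728. The Snhg4 identifier is absent from GENCODE M21, and the exons used were those of a noncoding gene that shares its end. A protein-coding model, Gm28285, overlaps that gene on the same strand in M21.

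In the 5 hosts whose small RNAs lay outside the exons, the host row was lower than the sum in 3 and higher in 2. Snhg6 stood at 15.5 CPM, against 73.8 CPM for Snord87, a ratio of 0.210. 2410004N09Rik (Epb41l4aos) stood at 2.59 CPM, against 57.2 CPM for Gm23639, and 2700038G22Rik at 1.19 CPM, against 31.0 CPM for Snord93, ratios of 0.0453 and 0.0385. In the other direction, 0610007N19Rik (Snhg18) stood at 23.9 CPM, against 9.99 CPM for Snord123, and Ftx at 3.55 CPM, against 0.574 CPM for Mir374b and Mir421, ratios of 2.39 and 6.19. Both sums were below the minimum of 10 CPM applied to the exon-contained hosts. With the lowest value of the table taken off each level the ratios were 2.42 and 13.7, so the Ftx ratio depends on that lowest value. Snhg7, whose identifier now names Snora43 itself, stood at 160 CPM, against 156 CPM for Snora17 and Snora43, and Snora17 made up 94.7% of that sum. How reads that fall on both genes were assigned is not given in the sources used here, and how much of a host's level comes from reads on its small RNAs was not tested.

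**Figure D2:**
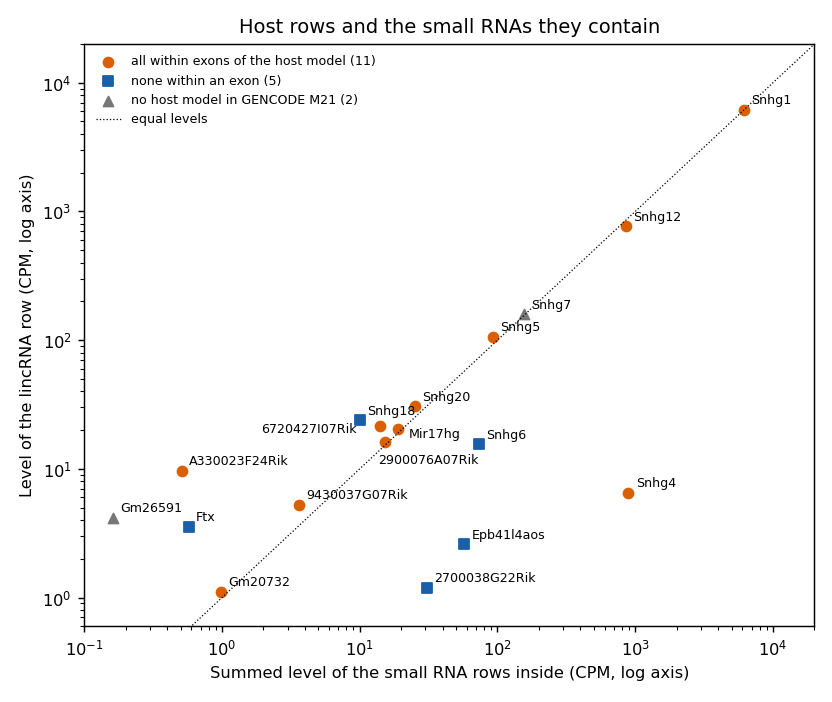
Each point is 1 of the 18 lincRNA genes that hold a small RNA row on the same strand, with the summed mean level of those small RNAs (CPM, log axis) against the mean level of the host (CPM, log axis) and colors by the place of the small RNAs in GENCODE M21. Snhg1, Snhg12, Snhg7 and Snhg5 lie along the dotted line of equal levels, while Snhg6, Snhg4, Epb41l4aos and 2700038G22Rik lie below it.

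The snoRNAs of Snhg5 show how close copies can be. Snord50a and Snord50b, both on the minus strand of chromosome 9, and Gm23017, which lies in the lincRNA gene 9430037G07Rik on the same chromosome, have 72 bases each. They are printed because reads from them can map to more than 1 copy. Capitals mark the bases of Snord50a at which another copy differs and, in the other copies, the base that differs. Positions are counted from 1 at the 5′ end of Snord50a.
Snord50a: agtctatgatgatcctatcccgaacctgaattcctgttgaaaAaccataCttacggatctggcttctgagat
Snord50b: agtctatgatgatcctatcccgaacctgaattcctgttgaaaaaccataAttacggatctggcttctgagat
Gm23017: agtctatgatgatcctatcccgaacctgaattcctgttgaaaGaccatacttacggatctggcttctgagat

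Snord50b differs from Snord50a by C50A and Gm23017 differs from it by A43G. The rows stood at 33.9 CPM for Snord50a (chr9:88521529-88521600), 58.6 CPM for Snord50b (chr9:88521797-88521868) and 3.63 CPM for Gm23017 (chr9:88598348-88598419). With so few differing bases, the split of reads between the 3 copies is uncertain, and so is the level of 9430037G07Rik, 5.27 CPM, which holds the third copy.

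Of the miRNA host list, Mir17hg stood at 20.3 CPM, Ftx at 3.55 CPM and AI854517 (Mir9-3hg) at 2.56 CPM. 5830416P10Rik (Mirt1), at 21.2 CPM, was also on that list, but it is not known as a miRNA host and no miRNA row of the table was found inside it on its strand. None was found inside AI854517 either. H19, Mirg, Gm26667 (Mir155hg) and A930011O12Rik (Mir124a-1hg) were below 0.4 CPM, and Mir143hg stood at the lowest value of the table. Mir17hg, on chr14:115042879-115046727, is the primary transcript of the miR-17-92 cluster, a growth-promoting miRNA cluster that is a target of Myc. Its 6 hairpin rows held 18.99 CPM, against 20.3 CPM for the host. Of that sum Mir92-1 made up 91.3%, at 17.3 CPM. Mir17 stood at 0.670 CPM, Mir20a at 0.408 CPM, Mir18 at 0.204 CPM, Mir19b-1 at 0.203 CPM and Mir19a at the lowest value of 0.163 CPM. These values come from the fraction of long RNA and are not levels of the mature miRNAs. A single mature sequence of each hairpin is printed, from RefSeq (GRCm38.p6), to show its seed. Mature sequences from the other arm of a hairpin are left out. The seed, bases 2 to 8, is in capitals.
mmu-miR-17-5p: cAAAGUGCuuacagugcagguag
mmu-miR-20a-5p: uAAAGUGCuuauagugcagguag
mmu-miR-18a-5p: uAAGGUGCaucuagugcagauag
mmu-miR-19a-3p: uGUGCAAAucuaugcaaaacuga
mmu-miR-19b-3p: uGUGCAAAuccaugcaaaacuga
mmu-miR-92a-3p: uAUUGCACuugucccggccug

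miR-17-5p and miR-20a-5p share a seed, as do miR-19a-3p and miR-19b-3p, whereas miR-18a-5p and miR-92a-3p each have their own. The hairpin with the highest level, Mir92-1, is the last of the cluster. A second host with a well-known miRNA, 6720427I07Rik on chr13:48535523-48537822, stood at 21.5 CPM, against 14.1 CPM for Mirlet7d, whose product let-7d belongs to a family that restrains Lin28, Ras and Hmga2. The mature form let-7d-5p is printed for its seed, again in capitals, and let-7d-3p is left out.
mmu-let-7d-5p: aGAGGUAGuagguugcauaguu

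In A330023F24Rik, host of Mir29b-2 and Mir29c, the host row stood at 9.66 CPM, against 0.508 CPM for both hairpins together. Gm20732 stood at 1.11 CPM, against 0.990 CPM for Mir30d.

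**Figure D3:**
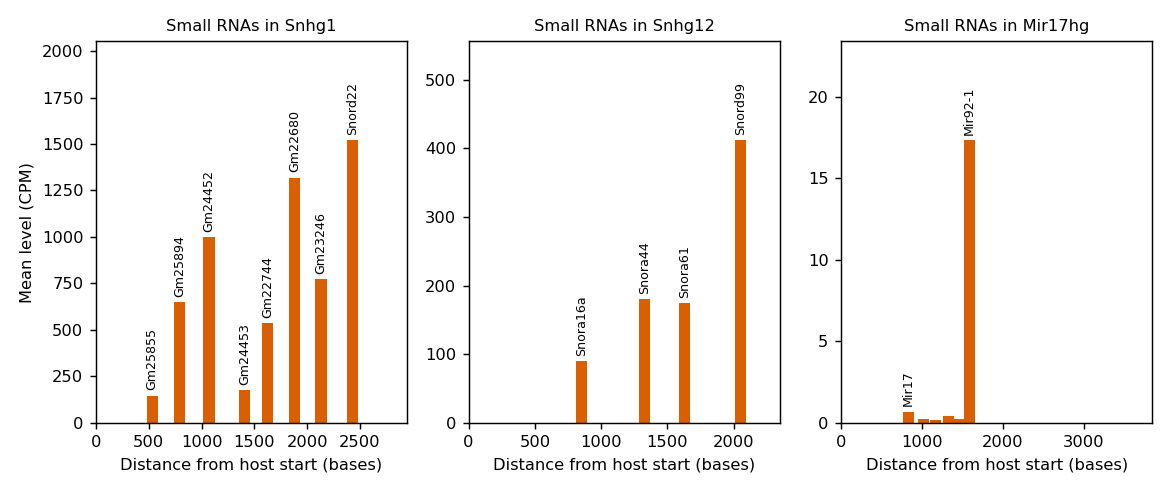
Bars give the mean level over 4 libraries (CPM) of each small RNA row against its distance from the start of the host gene (bases), for Snhg1, Snhg12 and Mir17hg. In Snhg1 all 8 snoRNAs reach at least 147 CPM, whereas in Mir17hg the Mir92-1 row at 17.3 CPM stands alone above 1 CPM.

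Of the 16 names fixed as nuclear RNAs, 9 were in the table as lincRNA genes, and 6 were at or above 1 CPM. Malat1, which gathers in nuclear speckles with splicing factors, stood at 15294 CPM. Neat1, the scaffold of paraspeckles, stood at 3130 CPM. The 2 genes are neighbors on the minus strand of chromosome 19, 22036 bases apart, and Malat1 exceeded Neat1 more per length than in CPM, with 2190 and 151 CPM per kb of exon. Xist, which coats and silences 1 X chromosome in female cells, stood at 374 CPM, and Pvt1, the neighbor of Myc, at 11.01 CPM. Trp53cor1 (lincRNA-p21), induced by p53 in mouse cells, stood at 1.71 CPM. Meg3 (0.263 CPM) and Mirg (0.264 CPM) of the imprinted Dlk1-Dio3 region were below the threshold, as was Miat (0.203 CPM). H19, the imprinted RNA of fetal tissues, stood at 0.385 CPM, so 0 of the 3 imprinted genes found was above 1 CPM.

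Gm26924 was also on the nuclear list. Its row alone held 300150 CPM, which was 29.7% of the summed CPM of the table, and 163927 CPM per kb. The gene lies on chr17:39846958-39848788 (GRCm38). RefSeq places Rn18s-rs5, a sequence related to 18S ribosomal RNA, over 1245 of its 1831 bases (68.0%). The share of this row that came from ribosomal RNA left in the libraries was not tested. All other levels are fractions of a total that includes this row. With Gm26924 the 180 genes held 32.4% of the summed CPM, and without it, counting the rest of the table as the total, 3.85%. Taking the row out of the total would lift every other level by 0.51 on the log2 scale.

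The X-inactivation list gave 3 genes, all above 1 CPM and all on the X chromosome. Xist was at 374 CPM, Ftx, a positive regulator of Xist, at 3.55 CPM, and Jpx, an RNA that relieves repression of Xist, at 1.89 CPM. Jpx starts 10341 bases from the start of Xist on the opposite strand. Per length Xist had 20.9 CPM per kb, Ftx 0.348 CPM per kb and Jpx 0.216 CPM per kb, the same order as in CPM. Ftx and Jpx had BCVs of 20.7% and 17.9%, and the order of their levels could not be tested. The BCV, the biological coefficient of variation, was taken from edgeR's dispersion and measures the relative spread between libraries beyond counting noise.

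The list of p53-linked RNAs had 3 members in the set and the list of RNAs studied in cancer had 6, most of them described above. 1700020I14Rik is Cyrano, an RNA whose site for miR-7 leads to decay of that miRNA, and it stood at 109 CPM and 13.2 CPM per kb, with a BCV of 6.01%. 4933436C20Rik (Crnde) stood at 4.08 CPM and AB041803 (Lncpint), typed protein-coding in the table, at 3.91 CPM. Hotair, Tug1 and Norad were not analysed here.

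Levels of different genes are comparable only per length, which was possible for 171 of the 180 genes. Their median exon length was 2857 bases, against 1400 bases for 1490 lincRNA genes below 1 CPM. At equal abundance a longer gene collects more reads, and the threshold was set on reads. The median level was 1.26 CPM per kb, against 4.08 CPM per kb for protein-coding genes at or above 1 CPM, and 97 of the 171 had at least 1 CPM per kb. Snhg1 (2073 CPM per kb) was close to Malat1 (2190 CPM per kb). The 8 snoRNAs inside Snhg1 held 6114 CPM, against 6156 CPM for its row. Its value per kb may therefore not be that of the host transcript, which was not tested. Next per length came Gm12840, a gene of 627 exonic bases on chromosome 4 of which no role is given here, at 330 CPM per kb. Snhg12, whose 4 snoRNAs held 856 CPM against 771 CPM for its row, had 321 CPM per kb. Gm12505 and 4930461G14Rik, with 757 and 843 exonic bases, stood higher in this order than in CPM, with 107 and 49.8 CPM per kb. Pvt1, with 1.57 CPM per kb, and Snhg4, with 1.39 CPM per kb, were near the median. Gene span in place of exon length gave a median of 0.363 CPM per kb.

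**Figure D4:**
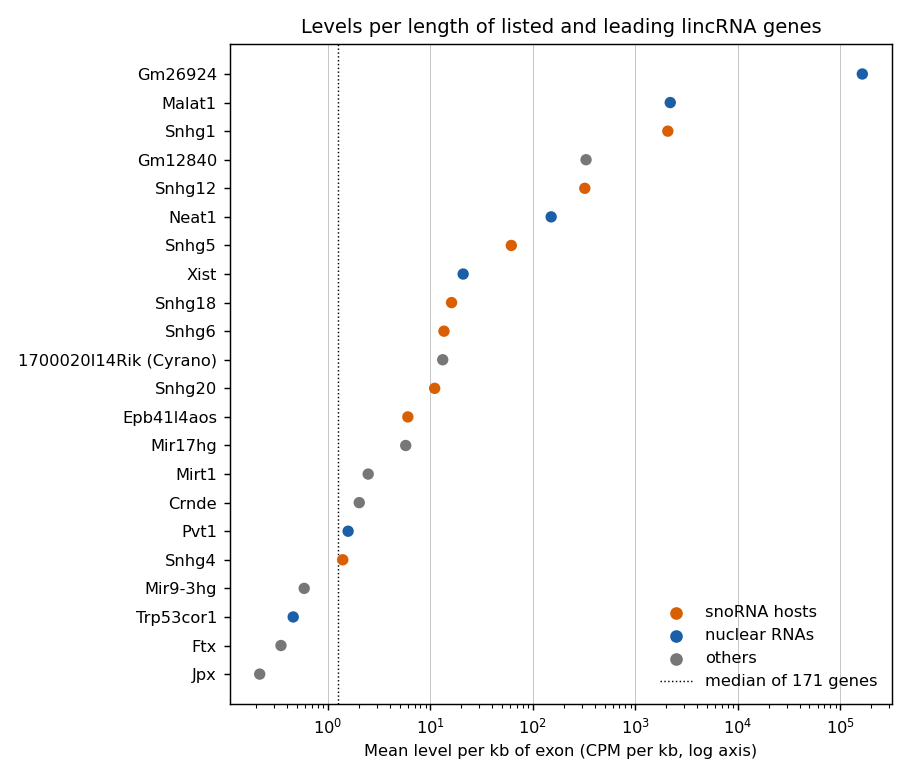
The mean level per kb of exon (CPM per kb, log axis) is shown for the listed and the 10 leading lincRNA genes that have an exon length, with snoRNA hosts in orange and nuclear RNAs in blue. The dotted line is the median of 171 genes, 1.26 CPM per kb, and Trp53cor1, Ftx and Jpx lie below it.

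The annotation of these genes differs in GENCODE M21. Of the 180 identifiers, 169 were found there, all 169 on the same chromosome, and 144 shared a start or end with it. In M21, 115 were typed lincRNA, 19 processed transcript, 16 antisense, 10 bidirectional promoter lncRNA, 3 transcribed pseudogene, 2 still to be experimentally tested, 2 protein-coding, 1 sense intronic and 1 snoRNA. The protein-coding ones were 1500011K16Rik, now Mtln, which encodes the mitochondrial micropeptide mitoregulin, and 2900056M20Rik, now Kantr. A new symbol was given to 20 genes.

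By position, 32 of the 180 genes (17.8%) had a start site within 1000 bases of the start of a protein-coding gene transcribed away from it, against 149 of the 1523 lincRNA genes below 1 CPM (9.78%). For 30 of the 32 the partner was itself at or above 1 CPM. Snhg1 is 1 of them, and its partner is Slc3a2, the heavy chain of amino acid transporters, which stood at log2 CPM 5.94. Protein-coding genes on the opposite strand overlapped 40 genes (22.2%), against 401 (26.3%) below the threshold. On the same strand 12 genes (6.67%) overlapped a protein-coding gene, against 41 (2.69%). These 12 included Gm26591 within Wnk1, Gdap10 with Nampt, Gm17491 with Slc20a2 and RP24-225I21.1 within Kirrel3, and reads in the shared stretch cannot be told apart by strand. The median distance to the nearest coding gene was 1469 bases, against 11612 bases.

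Some of the neighbors are well known. 1010001N08Rik starts 57 bases from the start of Gata6, a transcription factor of mesoderm and endoderm lineages, and the lincRNA stood at log2 3.19, against 5.95 for Gata6. RP23-45G16.5 (Lockd), downstream of the cell cycle inhibitor gene Cdkn1b by 3579 bases, stood at 3.03, against 7.28. Trp53cor1, 12018 bases from Cdkn1a, the p21 gene, stood at 0.77, against 6.39. Pvt1 stood at 3.46, against 4.83 for Myc. All these values are levels in log2 CPM, which depend on gene length, and they give no order between a lincRNA and its neighbor.

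RefSeq promoters, taken from 250 bases before to 50 bases after the start, were matched for 96 of the 180 genes by symbol. The dinucleotide CG occurred a median of 14.5 times in these 300 bases, against 5 for 666 lincRNA genes below 1 CPM and 21 for protein-coding genes at or above 1 CPM. At least 10 CG were found in 65.6% of the promoters, against 29.0% and 84.8%, and in 43.9% of all 27025 RefSeq promoters. Promoters of the genes without a match were not analysed here.

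The 180 genes were spread over 20 chromosomes. Chromosome 8 had most, 19 of its 87 lincRNA genes (21.8%), chromosome 15 had 9 of 41 (22.0%), and chromosome 11 had 6 of 160 (3.75%). On chromosome 8, Gm21817 lay wholly inside 4933436C20Rik (Crnde) on the same strand, so reads in the shared stretch cannot be told apart by strand. The nearest coding row of both was Irx5. A further 4 genes overlapped the coding row Gm20388, from A130014A01Rik (chr8:120101582-120103904) to 4732419C18Rik (chr8:123744631-123754228). Sharing this long row does not place them close together.

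Variation between libraries was lower at higher levels. The median BCV of the 180 genes was 19.4%, against 9.72% for protein-coding genes at or above 1 CPM, but most of the lincRNAs were low. Among genes of log2 CPM 0 to 1 the medians were 23.4% for 78 lincRNAs and 21.8% for 839 coding genes. From 1 to 2 they were 19.6% and 18.0%, from 2 to 4 they were 13.98% and 12.9%, and from 4 to 8 they were 8.94% and 7.43%. Xist had the lowest BCV of the set, 5.91%. The snoRNA hosts lay between 6.45% for Snhg7 and 17.6% for 2410004N09Rik. The highest were Gm26617 at 70.9%, Gm17259 at 51.1%, Gm21817 at 44.4%, Gpr137b-ps at 42.6% and Gm11033 at 40.5%, all at or below 2.03 CPM. At higher levels, B230208H11Rik (24.4 CPM, BCV 19.5%) and Gm12505 (81.3 CPM, BCV 16.9%) had more than the 7.43% that was the median of coding genes in their band. How libraries were grouped for the dispersion is not given in the sources used here, so a difference between the cell lines and a spread within each cannot be told apart in this value.

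**Figure D5:**
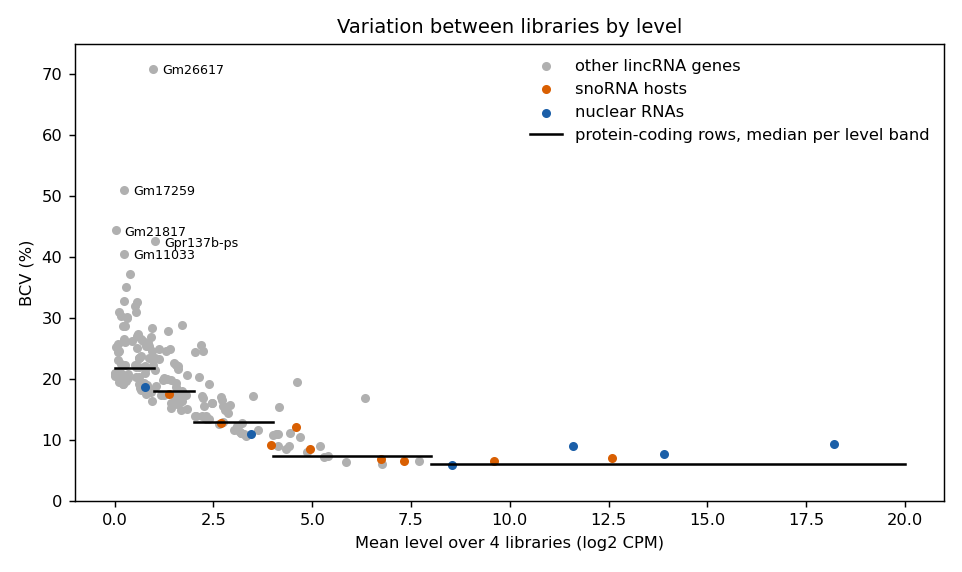
The BCV (%) of each of the 180 lincRNA genes is plotted against its mean level over 4 libraries (log2 CPM), and black lines give the median of protein-coding genes in each band of level. Gm26617 at 70.9% is the highest, and Xist at 5.91% the lowest.

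The labelled origin was checked against marker genes. Of 8 genes listed for ovarian surface and mesothelial epithelium, which include keratins of epithelia in general, 7 were at or above 1 CPM. They were led by Krt19 (938 CPM), Krt18 (501 CPM) and Krt8 (435 CPM), with Wt1 at 153 CPM. The lowest of the 7 was Krt7 at 1.91 CPM, and Pax8 was at 0.203 CPM. Of the leukocyte markers 1 of 7 found was above 1 CPM, Cd68 at 13.0 CPM, and Ptprc was at 0.224 CPM. Of the endothelial markers 1 of 4 was above 1 CPM, Pecam1 at 4.62 CPM, with Kdr at 0.385, Tek at 0.263 and Cdh5 at 0.183 CPM. Of the fibroblast markers 2 of 3 were, Dcn at 320 CPM and Pdgfra at 8.39 CPM, while Lum was at the lowest value. Neither marker of fat cells reached 1 CPM, and Hbb-bs of red cells was at the lowest value. Their part in the levels of the lincRNAs was not tested.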

How the data were processed

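RNA of 4 libraries, 2 each of ID8-PW2 and ID8-P0 cells, was read. The duplicates are those of a cell line each. ID8-P0 libraries shared lane 3, and ID8-PW2 libraries were in lanes 4 and 8. By the submitters' processing notes the authors used CASAVA 1.8.2, Trimmomatic 0.22, TopHat2 2.0.6, Bowtie2 2.0.2 and edgeR 3.20.8. The notes name a human build, but identifiers and positions are those of the mouse (GRCm38).

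The authors deposited a log2 CPM per gene, the mean over all libraries made by edgeR, and a dispersion, edgeR's score of how much a gene varies between libraries. These 2 columns were used. The 4 columns of counts named by number only were used in no step, so depth per library and its precision are unknown here. The 5 columns of the authors' own comparison (fold change, log2 fold change, p-value, FDR and direction) were not used. The tests planned between ID8-PW2 and ID8-P0 therefore could not be run, and the part of the rule for named genes that needs them was not applied. Genes named are the listed genes, the 10 most abundant, the 3 on each side of the threshold, and others chosen after their values were seen. The members and lists were chosen with earlier results of these data known.

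log2 CPM was put back to CPM, and the BCV is 100 times the square root of the dispersion. Exon length is the union of exons in GENCODE M21, taken by identifier, and for 3 genes by name or by a shared end. A small RNA was assigned to a host when it lay wholly inside it on the same strand. Python 3.11.15, numpy 2.4.6, pandas 2.3.3 and matplotlib 3.10.9 were used, and the interval functions were tested on invented intervals. Alternatives were a minimum of log2 CPM 1, a total without Gm26924 and, chosen after seeing the data, M21 types, same-strand overlap, gene span and levels less the lowest value.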

Additional observations from a re-analysis of the deposited data

How the results depend on the processing

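The number of lincRNA genes, 180, was 102 at a minimum of log2 CPM 1 and 115 with only genes that GENCODE M21 types as lincRNA. It was 231 with Gm26924 taken out of the total and 168 without genes that overlap a coding gene on the same strand. The 9 snoRNA hosts were 5 when typed lincRNA in M21 and 9 under the other settings, and the 6 nuclear RNAs were 5 or 6 throughout. The share of summed CPM on lincRNA genes, 32.5%, was 3.90% without Gm26924. The median level per kb, 1.26, was 0.363 with gene span. The median ratio of host to small RNAs in exon-contained hosts, 1.06, was 1.09 with the lowest value of the table taken off each level. The settings on M21 types, overlap, span and lowest value were chosen after seeing the data. Leaving out replicates, other normalizations, other filters and other tests were not run, since they need counts per library. No paired analysis was possible because no column of counts could be given to a sample. Without counts, no interval can be set on any level.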

Other observations

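Under their newer symbols, several low genes of the set are known from other settings, and they were chosen after their values were seen. Gm2373 is Lncenc1, an RNA of mouse embryonic stem cells, at 8.57 CPM. Gm20748 is Bvht (Braveheart), which is needed for cardiac commitment of mouse embryonic stem cells, at 2.17 CPM. 4933439G12Rik is Carlr at 3.29 CPM, 1110054M08Rik is Lppos at 3.24 CPM, Ccdc41os1 is Cep83os at 1.88 CPM and Gm15514 is Platr28 at 1.64 CPM. Gm26905, at 36.4 CPM, was the highest of the 180 genes on chromosome 8 and lay 128628 bases from the nearest coding row, Galntl6, which stood at the lowest value of the table.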
